A study of Mus musculus with 9 samples.

Results

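The genes described here are 9 genes by which a cell detects double-stranded RNA and answers to interferon: Ifih1, Eif2ak2, Mavs, Irf7, Irf9, Bst2, Ifit2, Rsad2 and Isg15. They were chosen by name, and all 9 have a row among the 16636 genes of the count table. Only 6 of the 9 (Eif2ak2, Mavs, Irf9, Bst2, Ifit2 and Rsad2) had enough reads to pass the filter on low counts and enter the test of 14246 genes, while Ifih1, Irf7 and Isg15 did not. RNA was sequenced from E14 cells, a wild-type line of mouse embryonic stem cells kept in the naive state in a medium with LIF and inhibitors of MEK and GSK3. There were 3 libraries of untreated cells, 3 of cells given an siRNA against luciferase, a gene that mouse cells lack (siLuc), and 3 of cells given an siRNA against Stag3, a cohesin subunit (siStag3). Both siRNAs were delivered by lipid transfection, with a second dose on the following day, and cells were taken at 48 hours. The untreated cells received neither lipid nor siRNA, so their effects cannot be told apart. Each group holds 2 libraries of Set 1 (experiments 1 and 3) and 1 library of Set 3, as the column names give them. The Set 3 library is of experiment 5 in untreated and siStag3 cells and of experiment 1 in siLuc cells, so each difference of siLuc within Set 3 is between experiments. What a set is was not stated, and libraries are listed below in that order.

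Double-stranded RNA is a sign of virus infection to most mammalian cells. The helicases RIG-I and MDA5 bind it in the cytoplasm and signal through MAVS to the transcription factors IRF3 and IRF7, which switch on interferon genes. Interferon then acts through its receptors and transcription factors such as IRF9 on response elements in the promoters of interferon-stimulated genes. The kinase PKR, encoded by Eif2ak2, also binds double-stranded RNA and blocks translation. Pluripotent cells are known for a weak form of this response, and short siRNAs are designed to stay below the length that the sensors bind well.

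The response element that IRF9 and its partners bind has a core of 2 copies of GAAA with 2 bases between them. This core was searched for on both strands of RefSeq promoter windows (GRCm38.p6), which reach from 250 bases before to 50 bases after the start of a transcript. It occurred in 5 of the 9 genes (Isg15, Bst2, Rsad2, Eif2ak2 and Ifih1) and in 3.99% of all 27025 genes with a window. By window, it was in 3.44% of 32851, and the 9 genes have 11. The windows of Isg15, Bst2 and Rsad2 are shown because these effector genes are the usual readout of an interferon response. Capitals mark the core, and overlapping copies run together.
Isg15 (chr4:156200769-156201068, minus strand): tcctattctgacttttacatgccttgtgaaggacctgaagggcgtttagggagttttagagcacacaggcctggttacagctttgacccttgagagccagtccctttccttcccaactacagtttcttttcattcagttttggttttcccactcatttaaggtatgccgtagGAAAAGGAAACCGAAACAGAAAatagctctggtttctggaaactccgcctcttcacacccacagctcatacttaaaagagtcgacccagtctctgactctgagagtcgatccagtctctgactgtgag
Bst2 (chr8:71537423-71537722, minus strand): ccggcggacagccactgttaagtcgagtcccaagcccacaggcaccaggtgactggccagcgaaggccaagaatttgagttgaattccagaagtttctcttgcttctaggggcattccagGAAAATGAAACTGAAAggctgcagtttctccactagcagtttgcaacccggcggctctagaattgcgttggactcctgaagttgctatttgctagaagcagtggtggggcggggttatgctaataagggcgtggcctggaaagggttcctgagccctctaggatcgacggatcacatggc
Rsad2 (chr12:26456403-26456702, minus strand): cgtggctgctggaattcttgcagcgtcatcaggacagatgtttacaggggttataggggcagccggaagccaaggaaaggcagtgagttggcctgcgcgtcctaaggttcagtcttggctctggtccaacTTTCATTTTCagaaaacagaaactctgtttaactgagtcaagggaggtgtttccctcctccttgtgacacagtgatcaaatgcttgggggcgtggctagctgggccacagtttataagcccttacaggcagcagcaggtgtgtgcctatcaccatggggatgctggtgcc
Isg15 held 3 overlapping copies and Bst2 held 2, while Rsad2 held 1 copy on the opposite strand. Eif2ak2 (window chr17:78882523-78882822, minus strand) held the core GAAAACGAAA, from 18 to 27 bases after the start. Ifih1 (window chr2:62646206-62646505, minus strand) held GAAACAGAAA, from 32 to 41 bases after the start. The windows of Mavs, Irf7, Irf9 and Ifit2 did not hold these letters, which says nothing about sites outside the windows or of another form.

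Total counts ran from 29332436 to 44527534 per library, and a floor of 3 counts per library equalled 0.0650 to 0.0990 CPM (counts scaled to a common library size after TMM adjustment). Stag3 itself was at 13.5 to 15.6 CPM in the siStag3 libraries, below the siLuc (22.5 to 26.7 CPM) and untreated libraries (24.1 to 28.6 CPM). All 8 markers of naive stem cells were present in every library, with a summed level of 4545 to 5004 CPM. Fibroblast markers summed to 1.56 to 2.86 CPM, with 6 of 7 listed. Leukocyte and macrophage markers summed to 11.4 to 15.0 CPM, with 3 of 7 listed, and nearly all of it was Cd68 (11.2 to 14.9 CPM). The ranges of these sums overlapped between the 3 groups. The share of mitochondrial counts, a sign of RNA and cell quality, moved with transfection. It was 4.41%, 5.33% and 3.48% in the untreated libraries, 6.73%, 6.08% and 5.98% in siLuc and 6.60%, 6.78% and 4.10% in siStag3. Within each set both transfected groups lay above untreated cells, and the part of this in the differences below was not tested. In a bulk sample, fewer cells that express a gene and less of its RNA per cell cannot be told apart.

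The 9 genes fell into a set of 4 that naive stem cells express and a set of 5 that were barely detected. Levels were compared between genes as TPM-like values, that is, counts divided by the length of the longest coding transcript in GENCODE M21 and scaled to a fixed total. Mavs had the highest level, at 40.4 on this scale over the 9 libraries (range 33.9 to 47.6), and lay at the 77.4th percentile of all genes with a length. Eif2ak2 followed at 23.5 (17.3 to 26.7), Irf9 at 17.7 (14.7 to 20.6) and Bst2 at 8.62 (5.32 to 10.2). The ranges of Eif2ak2 and Irf9 overlapped, so their order was not set by these libraries. Below them came Ifit2 at 0.390 (0.228 to 0.597), Rsad2 at 0.223 (0.0685 to 0.357) and Isg15 at 0.193 (0 to 0.438). Irf7 at 0.0884 (0.0300 to 0.206) and Ifih1 at 0.0525 (0.0363 to 0.0740) were lowest, at the 8.20th and 4.66th percentiles. The ranges of each neighbouring pair among these 5 genes overlapped.

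**Figure D1:**
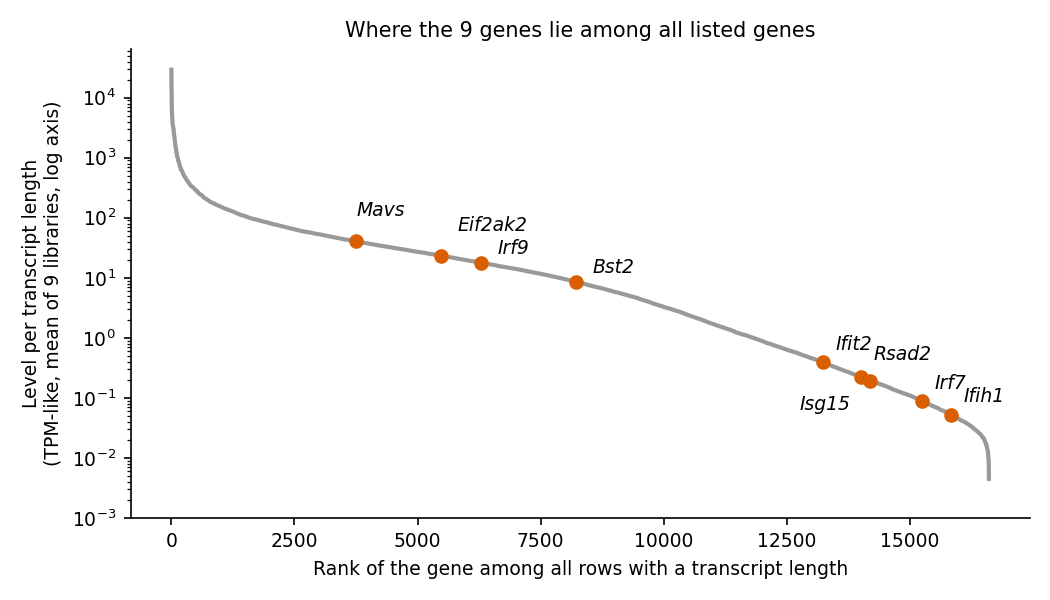
Mean level per transcript length over 9 libraries (vertical axis, TPM-like, log scale) against the rank of each gene among all rows with a length (horizontal axis). The grey line is all genes and the orange points are the 9 genes, of which Mavs, Eif2ak2, Irf9 and Bst2 lie between 8.62 and 40.4 and the other 5 lie at or below 0.390.

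Tests used edgeR's quasi-likelihood F test on the counts of all 9 libraries, with the set as a covariate and Benjamini-Hochberg adjustment over 14246 genes. None of the 6 tested genes passed an adjusted p of 0.05 in any of the 3 comparisons. In siLuc against untreated cells 598 of all genes (4.2%) passed, in siStag3 against untreated 361 (2.53%), and in siStag3 against siLuc 4 (0.0281%). At an unadjusted p under 0.05 there was 1 of the 6 genes in siLuc against untreated (Mavs, lower), 2 in siStag3 against untreated (Rsad2 and Ifit2, higher) and 1 in siStag3 against siLuc (Mavs, higher). Of all tested genes, 27.8%, 17.0% and 7.88% had such a p in these comparisons. The DESeq2 Wald test called 1 of the 6 genes in the first comparison (Mavs, beside 1337 of all genes) and 0 in the others. It gave Rsad2 and Ifit2 no adjusted p in any comparison. The median log2 fold change of the 6 genes was 0.20 in siLuc and 0.06 in siStag3 against untreated, beside medians of all genes of -0.00242 and -0.00561. The 95% intervals given below are for single genes and are not adjusted over genes. Where libraries of groups are said to lie fully above or below each other, the share of all genes that do so was not counted.

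The sensor MDA5 and the kinase PKR stand at the start of the pathway. Ifih1 (ENSMUSG00000026896), which encodes MDA5, had 3, 6 and 5 counts in the untreated libraries, 3, 6 and 6 in siLuc and 4, 5 and 3 in siStag3. These 41 counts over 9 libraries lay near the limit of 3 counts per library, and the groups overlapped fully. The pooled level was 0.121 CPM in untreated cells (exact Poisson interval 0.0662 to 0.203), 0.151 in siLuc (0.0845 to 0.249) and 0.123 in siStag3 (0.0635 to 0.215). These intervals cover counting error only. The exact permutation test used for Ifih1, Irf7 and Isg15 exchanged libraries without regard to set, unlike the edgeR fits with the set as a covariate. The exact permutation test (two-sided) gave p = 0.7 for siLuc and p = 1 for siStag3 against untreated, where the design allows no p under 0.1. With no filter on low counts, the edgeR interval reached from a log2 fold change of -0.96 to 1.56 in siLuc, whose upper end equals 2.96-fold.

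Eif2ak2 (ENSMUSG00000024079), which encodes PKR, was at 46.3, 50.4 and 34.9 CPM in untreated cells, 52.0, 51.1 and 42.6 CPM in siLuc and 54.0, 53.2 and 33.7 CPM in siStag3. The Set 3 library was the lowest in every group, and Eif2ak2 was lower in Set 3 than in Set 1 by a log2 difference of -0.47 (SE 0.0684, edgeR adjusted p 0.000170). The difference between groups was smaller than that between sets. The log2 fold change was 0.16 in siLuc against untreated (SE 0.0772, interval -0.00680 to 0.33, edgeR adjusted p 0.196). The siStag3 value against untreated was 0.09 (SE 0.0774, interval -0.08 to 0.25, edgeR adjusted p 0.588). The upper ends of these intervals equal 1.25-fold and 1.19-fold. The GC correction (a correction for the GC content of genes) moved the values to 0.04 and 0.03. Without the Set 3 library of the transfected group they were 0.06 in siLuc and 0.18 in siStag3, and the siStag3 value was 0.05 without its first Set 1 library and 0.06 without the first untreated library. Within Set 1 and Set 3 the siStag3 difference from untreated was 0.15 and -0.05 on the scale of log2(CPM + 0.5), so its direction was not shared.

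MAVS is the adaptor on mitochondria that both helicases need. Mavs (ENSMUSG00000037523) was at 59.7, 54.7 and 64.0 CPM in untreated cells, 49.1, 51.3 and 50.9 CPM in siLuc and 56.2, 56.8 and 65.5 CPM in siStag3. Every siLuc library lay below every library of the other groups. The log2 fold change of siLuc against untreated was -0.23 (SE 0.0636, interval -0.37 to -0.10, edgeR adjusted p 0.0528). It missed the threshold here and passed it with the DESeq2 Wald test (adjusted p 0.0277), with scaling by total count only (edgeR adjusted p 0.0366) and with only the 6 libraries compared (edgeR adjusted p 0.0303). These alternatives also called more of all genes, at 1337, 761 and 1801, beside 598 in the main fit. With total count only, 161 of those genes were higher and 600 lower. The GC correction gave -0.14 (edgeR adjusted p 0.0701), a smaller difference. For siStag3 against untreated the log2 fold change was 0.000424 (SE 0.0633, interval -0.14 to 0.14, edgeR adjusted p 0.998). The difference between the siRNAs was 0.23 (SE 0.0638, interval 0.10 to 0.37, edgeR adjusted p 0.394), with 0.17 within Set 1 and 0.36 within Set 3.

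The interferon regulatory factors came next. Irf7 (ENSMUSG00000025498), the factor that carries the late and strong phase of interferon production in immune cells, had 4, 3 and 2 counts in untreated cells, 1, 4 and 3 in siLuc and 3, 7 and 1 in siStag3. Its 28 counts over 9 libraries gave no separation of groups. The exact permutation test, two-sided, gave p = 0.9 for both siRNAs against untreated. Irf9 (ENSMUSG00000002325), a DNA-binding factor of the interferon response, was at 25.6, 23.0 and 27.3 CPM in untreated cells, 20.7, 23.6 and 27.0 CPM in siLuc and 20.4, 22.3 and 26.0 CPM in siStag3. The groups overlapped, and the Set 3 library was the highest of each group (Set 3 minus Set 1, log2 0.24, SE 0.0661, edgeR adjusted p 0.00937). Its log2 fold change was -0.09 in siLuc (SE 0.0768, interval -0.26 to 0.07, edgeR adjusted p 0.453) and -0.15 in siStag3 (SE 0.0770, interval -0.31 to 0.02, edgeR adjusted p 0.347), both against untreated. The upper ends of the intervals are 1.05-fold and 1.01-fold. With 1 library left out the siLuc value ran from -0.13 to -0.03, and it was -0.03 without the first untreated library and -0.04 without the first siLuc library. The siStag3 value was -0.09 without the first untreated library.

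**Figure D2:**
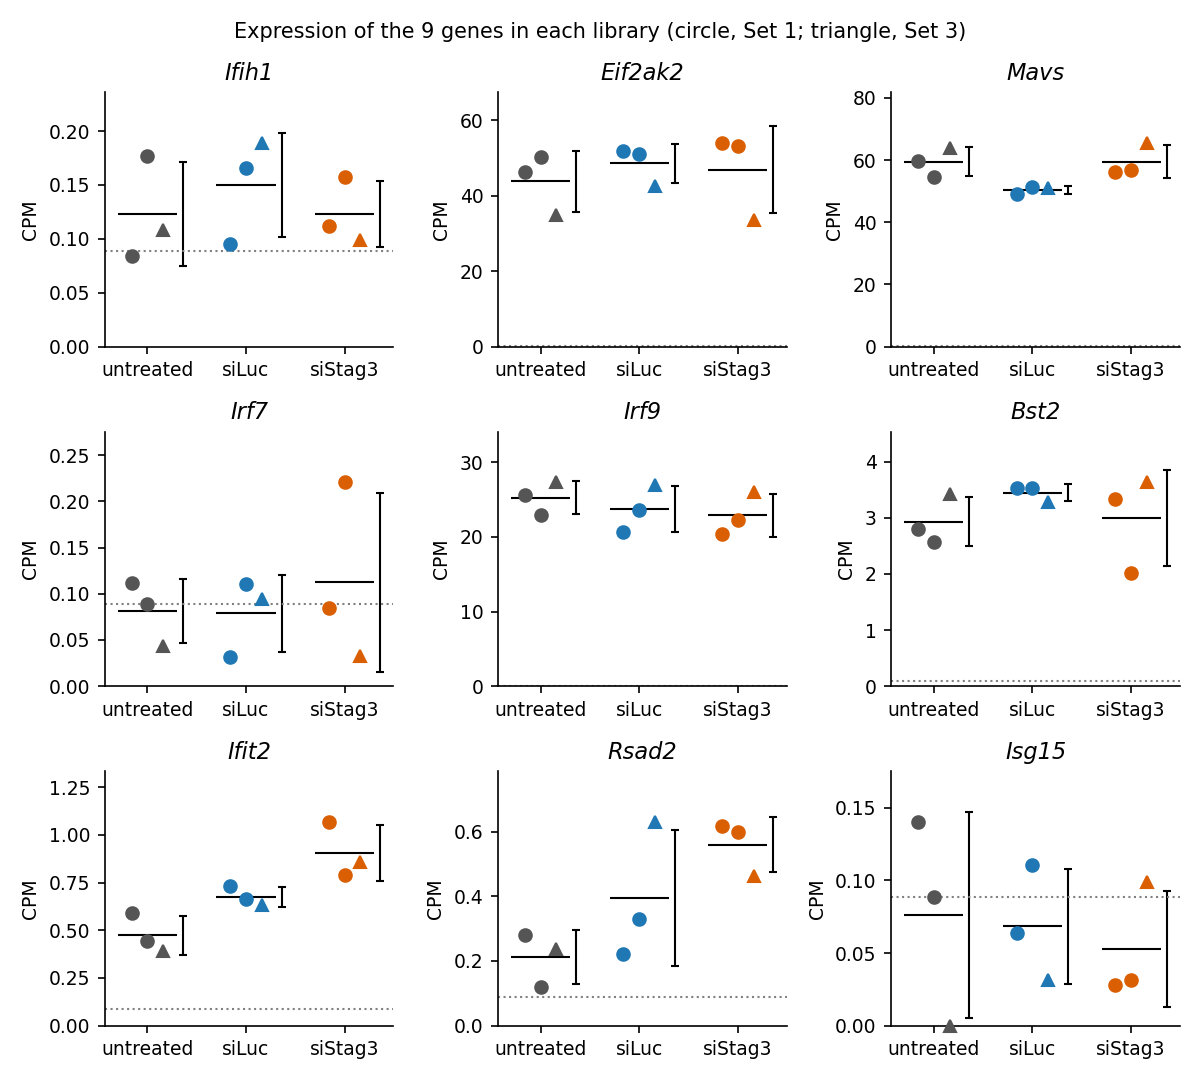
CPM of each gene (vertical axes, linear from 0) in the 3 libraries of each group (horizontal axes). Circles are Set 1 and triangles Set 3, the horizontal bar is the mean, the error bar beside it is the SD, and the dotted line is the median floor of 3 counts; Isg15, Irf7 and Ifih1 lie around that line, and the siStag3 libraries of Rsad2 and Ifit2 lie above all untreated libraries.

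The effectors are the products that interferon induces. Rsad2 (ENSMUSG00000020641), which encodes viperin, an enzyme that makes a chain-terminating nucleotide, had 10, 4 and 11 counts in untreated cells, 7, 12 and 20 in siLuc and 22, 19 and 14 in siStag3. In CPM these were 0.280, 0.118 and 0.238, then 0.223, 0.331 and 0.630, then 0.618, 0.599 and 0.462. All siStag3 libraries lay above all untreated libraries, while siLuc spanned both, its Set 3 library being the highest of the 9. The log2 fold change of siStag3 against untreated was 1.40 (SE 0.418, interval 0.50 to 2.30, edgeR adjusted p 0.101), that is 2.64-fold with an interval of 1.42-fold to 4.92-fold. The adjusted p was 0.0526 with the GC correction, and without the siStag3 library of Set 3 the value was 1.82 with an edgeR adjusted p of 0.0228, which passed. In siLuc against untreated it was 0.86 (SE 0.442, interval -0.09 to 1.81, edgeR adjusted p 0.219), and 0.32 without the siLuc library of Set 3. The siRNAs differed by 0.54 (SE 0.385, interval -0.29 to 1.37, edgeR adjusted p 0.737). The signs were opposite within Set 1 (0.52) and Set 3 (-0.23) on the scale of log2(CPM + 0.5), which shrinks differences at such low levels. Mean Rsad2 after the Stag3 siRNA was still only 0.560 ± 0.0851 CPM (SD, n = 3), against 0.212 ± 0.0842 CPM in untreated cells.

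Ifit2 (ENSMUSG00000045932), an RNA-binding protein of the IFIT family, had 21, 15 and 18 counts in untreated cells, 23, 24 and 20 in siLuc and 38, 25 and 26 in siStag3. The CPM values were 0.589, 0.443 and 0.390, then 0.732, 0.662 and 0.630, then 1.07, 0.788 and 0.858. The 3 groups did not overlap, with siLuc between the other groups, and how many of all genes separate in this way was not counted. The log2 fold change was 0.51 in siLuc (SE 0.270, interval -0.07 to 1.09, edgeR adjusted p 0.230). It was 0.94 in siStag3 (SE 0.259, interval 0.38 to 1.50, edgeR adjusted p 0.0799), both against untreated. The siStag3 value equals 1.92-fold, with an interval of 1.30-fold to 2.82-fold. Over 16 alternatives it stayed between 0.83 and 1.10, with an edgeR adjusted p of 0.0725 to 0.497. Between the siRNAs the difference was 0.43 (SE 0.251, interval -0.11 to 0.97, edgeR adjusted p 0.699). Within Set 1 and Set 3 it was 0.25 and 0.27 on the scale of log2(CPM + 0.5).

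Bst2 (ENSMUSG00000046718), which encodes tetherin, a protein that holds budding virus on the cell, had a higher baseline. It was at 2.80, 2.57 and 3.42 CPM in untreated cells, 3.53, 3.53 and 3.28 CPM in siLuc and 3.34, 2.02 and 3.63 CPM in siStag3. The groups overlapped, and the second Set 1 library of siStag3 was the lowest of the 9. The log2 fold change against untreated was 0.24 in siLuc (SE 0.177, interval -0.14 to 0.62, edgeR adjusted p 0.389) and 0.03 in siStag3 (SE 0.179, interval -0.36 to 0.41, edgeR adjusted p 0.949). The siLuc value was 0.41 without its Set 3 library, and with 1 library left out the siStag3 value ran from -0.12 to 0.23. A rise above 1.54-fold in siLuc or 1.33-fold in siStag3 lies outside these intervals of the main fit. The upper end in siLuc was a log2 fold change of 0.62 there and 0.83 without the siLuc library of Set 3.

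Isg15 (ENSMUSG00000035692), a ubiquitin-like protein that is among the most strongly induced genes in cells with a full response, had 5, 3 and 0 counts in untreated cells, 2, 4 and 1 in siLuc and 1, 1 and 3 in siStag3. Untreated cells held 8 of the 20 counts, siLuc 7 and siStag3 5, from libraries of unequal depth. The pooled level was 0.0692 CPM in untreated cells (exact Poisson interval 0.0299 to 0.136), 0.0704 in siLuc (0.0283 to 0.145) and 0.0512 in siStag3 (0.0166 to 0.120). The two-sided exact permutation test gave p = 1 for siLuc and p = 0.7 for siStag3 against untreated, and over the 9 tests of Isg15, Irf7 and Ifih1 every adjusted p was 1. With no filter, the upper end of the edgeR interval was 4.20-fold in siLuc and 3.34-fold in siStag3. Isg15 holds 3 copies of the GAAA core in the window printed above, and Rsad2 holds 1.

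**Figure D3:**
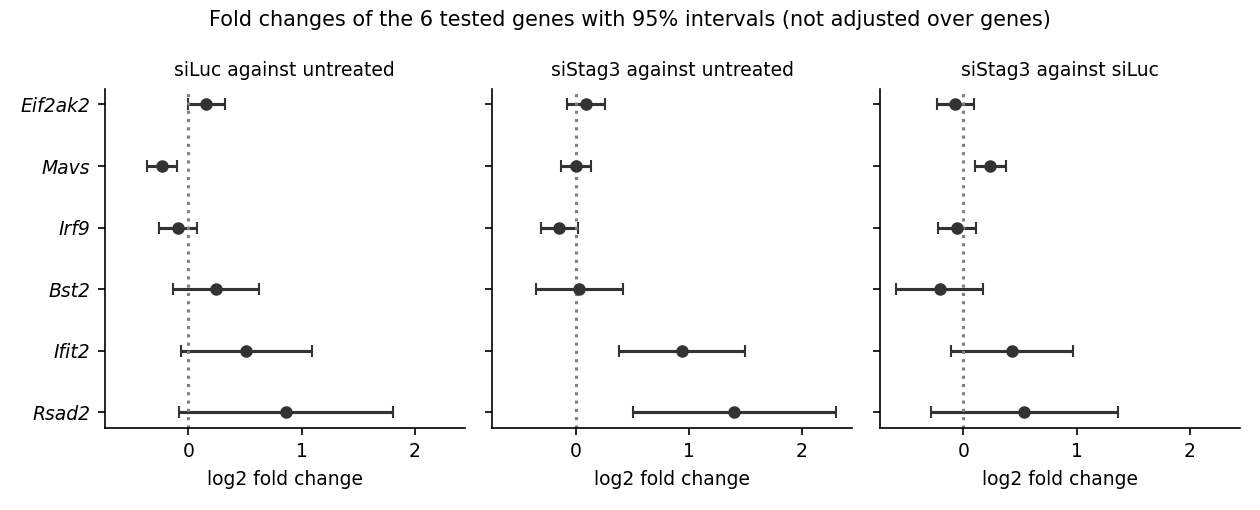
Log2 fold changes (horizontal axes) of the 6 tested genes in the 3 comparisons, with bars for 95% intervals that are not adjusted over genes. The intervals of Rsad2 and Ifit2 are the widest and lie above 0 in siStag3 against untreated. The interval of Mavs lies below 0 in siLuc against untreated and above 0 in siStag3 against siLuc. Those of Eif2ak2, Irf9 and Bst2 reach 0 or cross it in all 3 comparisons, and no gene passed the adjusted threshold.

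The other genes of the pathway were taken from 6 lists by role, which hold 117 further genes. Of these, 86 had a row and 76 were tested. In siLuc against untreated 1 rose and 4 fell, beside 4.2% of all genes called. With siStag3 against untreated 1 rose and 1 fell, beside 2.53%. In siStag3 against siLuc 0 passed, beside 0.0281%, with 0 by the DESeq2 Wald test. At an unadjusted p under 0.05 there were 18, 12 and 4 of the 76 in the 3 comparisons, beside 27.8%, 17.0% and 7.88% of all genes. The medians of the 76 genes in the 3 comparisons were -0.00732, -0.0108 and 0.00624, beside -0.00242, -0.00561 and -0.00479 for all genes.

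Among 9 sensors of nucleic acid, 5 were tested and 1 rose against untreated, beside 4.2% (siLuc) and 2.53% (siStag3) of all genes called. Ddx58 encodes RIG-I, the helicase that binds RNA ends carrying a triphosphate, and was at 40.3, 40.0 and 36.8 CPM in untreated cells, 53.8, 49.5 and 47.5 CPM in siLuc and 51.8, 49.9 and 49.0 CPM in siStag3. All 6 transfected libraries lay above all 3 untreated libraries, and within each set they also had the higher mitochondrial share. The log2 fold change against untreated was 0.36 in siLuc (SE 0.0602, edgeR adjusted p 0.00594) and 0.37 in siStag3 (SE 0.0602, edgeR adjusted p 0.00557), or 1.29-fold for each. Within Set 1 and Set 3 it was 0.36 and 0.36 in siLuc and 0.34 and 0.41 in siStag3. The GC correction left 0.30 and 0.34 (edgeR adjusted p 0.00124 and 0.000329). The call was lost with no term for the set (edgeR adjusted p 0.353 and 0.298), and without the untreated library of Set 3 (0.0578 and 0.0642). In siStag3 it was also lost without the Set 1 library of experiment 1 (0.0556). The siRNAs differed in Ddx58 by 0.00132 (SE 0.0600), an interval of 0.915-fold to 1.09-fold. Both comparisons share the untreated libraries. Tlr3 and Tlr7, which sense RNA in endosomes, had 43 and 39 counts in all and were not tested. As mean ± SD of 3 libraries, Tlr7 was at 0.255 ± 0.0251 CPM in siStag3. It was at 0.0793 ± 0.0125 CPM in untreated cells and 0.0501 ± 0.0167 CPM in siLuc. On the scale of log2(CPM + 0.5), its siStag3 difference from siLuc was 0.45 within Set 1 and 0.46 within Set 3. That scale shrinks differences at such low levels, and Tlr7 had 1 to 10 counts per library. Mean Tlr3 was 0.149 CPM in untreated cells, 0.101 CPM in siLuc and 0.172 CPM in siStag3. For siStag3 against siLuc the smallest p-values among the tested sensors were those of Dhx58, the regulatory helicase LGP2 (-0.57, SE 0.296, edgeR adjusted p 0.661), and Sting1, the adaptor of DNA sensing (-0.12, SE 0.141, edgeR adjusted p 0.842).

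Of the 17 adaptors, kinases and transcription factors that lead to interferon, 16 were tested. There was 1 call in siLuc against untreated, beside 4.2% of all genes. Irf3, the constitutive factor that MAVS signalling activates, was at 19.4, 19.8 and 25.4 CPM in untreated cells, 15.2, 14.7 and 20.6 CPM in siLuc and 16.4, 16.7 and 24.8 CPM in siStag3. It was lowest in siLuc within each set. It fell in siLuc by 0.36 on the log2 scale (SE 0.0717, edgeR adjusted p 0.0196), while in siStag3 the value was -0.17 (SE 0.0711, edgeR adjusted p 0.250). The siRNAs differed by 0.19 (SE 0.0725, edgeR adjusted p 0.544). No fit that left out 1 of the 6 libraries kept the siLuc call (edgeR adjusted p 0.0528 to 0.0834), and the GC correction gave -0.22 (edgeR adjusted p 0.0452), a change of over 1.5 times. The other small p of siStag3 against untreated was that of Nfkb1, an NF-kappaB subunit (0.21, SE 0.0766, edgeR adjusted p 0.173).

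None of the 21 interferon genes of the list, Ifnb1 and the Ifna family among them, had a row in the table, whose smallest row sum is 9 counts over the 9 libraries. Of the 15 receptor, JAK-STAT and feedback genes 14 were tested and 0 passed in any comparison by edgeR. Of all genes 4.2%, 2.53% and 0.0281% passed in the 3 comparisons. In siLuc against untreated the smallest p-values were those of Stat2, the partner of IRF9 (-0.25, SE 0.0719, edgeR adjusted p 0.0638, and under 0.05 in 5 of 17 alternatives), and Ifnlr1, a receptor chain for interferon lambda (-0.24, SE 0.0967, edgeR adjusted p 0.134). For siStag3 against untreated they were those of Jak1, a receptor kinase (0.16, SE 0.0612, edgeR adjusted p 0.205), and Stat2 (-0.16, SE 0.0717, edgeR adjusted p 0.263). In siStag3 against siLuc they were those of Socs3, a feedback inhibitor (0.15, SE 0.0754, edgeR adjusted p 0.654), and Ifnlr1 (0.17, SE 0.0979, edgeR adjusted p 0.694).

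The arm of PKR and the oligoadenylate synthetases, which make the activator of RNase L, held 14 tested genes. Oas1g was at 21.6, 18.7 and 19.9 CPM in untreated cells, 16.9, 16.4 and 14.7 CPM in siLuc and 16.3, 17.5 and 17.5 CPM in siStag3, so every transfected library lay below every untreated library. It fell in siLuc by 0.33 on the log2 scale (SE 0.0814, edgeR adjusted p 0.0413), a call that 5 of 6 fits with 1 library left out did not keep. Those fits gave adjusted p-values of 0.0700 to 0.212. The value in siStag3 was -0.23 (SE 0.0812, edgeR adjusted p 0.158). Oas1g has close paralogs, Oas1a among them, and how reads were shared between them is not given in the sources used here. Oas1a differed between the siRNAs by 0.18 (SE 0.0654, edgeR adjusted p 0.505) and Tarbp2, which binds double-stranded RNA with Dicer, by 0.12 (SE 0.0735, edgeR adjusted p 0.716). Oasl2 had -0.50 in siStag3 against untreated (SE 0.220, edgeR adjusted p 0.272). Against untreated, 7 of the 14 genes were higher and 7 lower with each siRNA. The largest difference of the arm in siLuc was a rise of Oasl1 (0.60, SE 0.240, edgeR adjusted p 0.132), which did not pass. Oasl1 was at 0.42 in siStag3 against untreated (SE 0.244, edgeR adjusted p 0.397).

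Among 50 interferon-stimulated effectors, 42 had a row and 33 were tested. Against untreated, 0 rose and 2 fell in siLuc, and 0 rose and 1 fell in siStag3, beside 4.2% and 2.53% of all genes called. The list medians were -0.00238 and -0.05, beside -0.00242 and -0.00561 for all genes. Ube2l6 encodes the enzyme that loads ISG15 onto its targets. It was at 85.0, 93.4 and 64.4 CPM in untreated cells, 64.2, 66.3 and 52.3 CPM in siLuc and 64.9, 67.1 and 54.6 CPM in siStag3. Within each set both transfected groups lay below untreated cells. Ube2l6 fell in siLuc by 0.40 (SE 0.0631, edgeR adjusted p 0.00415) and in siStag3 by 0.37 (SE 0.0631, edgeR adjusted p 0.00699) on the log2 scale. The siStag3 call was lost without its Set 1 library of experiment 1 (edgeR adjusted p 0.0861), and the siLuc call was kept in each fit with 1 library left out. Sp100, a nuclear body protein, fell in siLuc by 0.50 (SE 0.121, edgeR adjusted p 0.0352), a call lost in each of the 6 such fits (0.0617 to 0.121). With no term for the set Ube2l6, Sp100, Irf3 and Oas1g all lost their calls (edgeR adjusted p 0.580 to 0.784). Between the siRNAs the smallest p-values were those of Tap1, a peptide transporter (-0.35, SE 0.127, edgeR adjusted p 0.507), and Xaf1 (0.13, SE 0.0568, edgeR adjusted p 0.615). Ifit1, Cxcl10 and Mx2, effectors with strong induction in responding cells, were not tested, with 40, 22 and 16 counts over the 9 libraries.

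**Figure D4:**
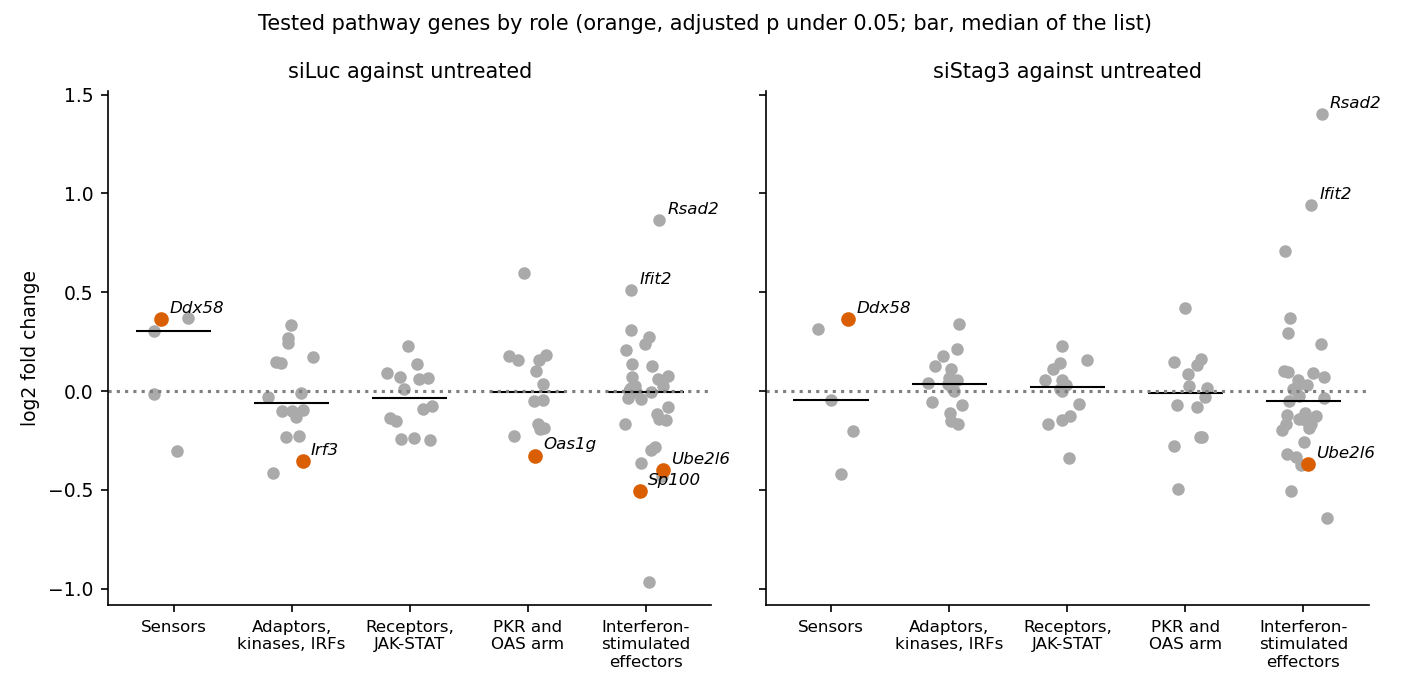
Log2 fold change against untreated cells (vertical axis) of the tested pathway genes in 5 roles (horizontal axis), for siLuc and siStag3. Each point is a gene, orange points passed an adjusted p of 0.05, and bars are list medians; Ddx58 is the orange point above 0 in both panels, while Rsad2 and Ifit2 lie highest among the effectors without passing.

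The promoter core also gave a list that reaches beyond the pathway, though only tested genes with a promoter window could enter it. Of the tested genes with a promoter window, 402 held the GAAA core and 10852 did not. In siLuc against untreated 14 of the 402 were called (3.48%), 2 higher and 12 lower. Of the genes without the core 4.13% were called, 165 higher and 283 lower. With siStag3 against untreated 10 of the 402 were called (2.49%), 6 higher and 4 lower. Of the genes without the core 2.42% were called, 107 higher and 156 lower. In siStag3 against siLuc 0 of the 402 were called and 3 of the others (0.0276%). The median log2 fold changes of the 402 were 0.00785, 0.0113 and -8.01e-05, beside -0.00371, -0.00689 and -0.00439 for genes without the core. The shares with and without the core were close to each other in all 3 comparisons. Neither the difference in share nor that in direction was tested.

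The genes whose log2 CPM ran most nearly in parallel with 3 of the 9 genes over the 9 libraries, after the mean of each set was subtracted, were looked up among 11229 genes. For Rsad2 they were Tppp3 (Pearson r 0.975), Adamts9 (0.954), Crybg3 (0.954), Nuak2 (0.948) and Ppt1 (0.941). For Ifit2 they were Inhbb (0.980), Ptpn13 (0.980), Sft2d2 (0.976), Arhgef3 (0.970) and Rbsn (0.970). For Isg15 they were Dcun1d2 (0.972), Fbxo27 (0.939), Stk10 (0.939), Garnl3 (0.925) and Mmrn2 (0.925). None of these 15 genes is in the pathway lists. The search took only genes whose log2 CPM averaged 1 or more. Effectors of lower level, such as Mx1 and Ifit1, could not appear. The absence of pathway genes therefore says nothing about those below this limit. These are the extremes of many correlations over few libraries that share groups and sets, and for Isg15 they rest on 0 to 5 counts per library.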

How the data were processed

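The authors deposited raw counts per gene for 9 mRNA libraries, as whole numbers with an Ensembl gene ID and a mouse symbol. FastQC, Salmon, DESeq2 and GRCm39 are named in the submitters' processing notes, and the role of each tool, the annotation and the strand setting are not given in the sources used here. Promoter windows and transcript lengths come from GRCm38 tables and were joined to the counts by gene name or ID, with no coordinates carried between builds (16604 of 16636 rows matched GENCODE M21). Columns name the group, set and experiment but no replicate number.

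Counts were tested with edgeR 4.0.16 in R 4.3.3 (TMM factors, filterByExpr, robust glmQLFit, glmQLFTest), with all 9 libraries, a mean per group and the set as covariate. The SE of a log2 fold change is its size divided by the square root of F, and 95% intervals use the total degrees of freedom. P-values are two-sided, adjusted by the Benjamini-Hochberg method over 14246 genes, with a threshold of 0.05. DESeq2 1.42.0 was an alternative. The labels call the samples biological replicates.

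The 9 genes, the lists and the set covariate were chosen with earlier results of these data known. The rule for other named genes takes each pathway gene past the threshold, or the 2 smallest p-values of a list with none. Ifit1, Tlr3, Tlr7, Cxcl10 and Mx2 were named after their counts were seen, and Oasl1 after its values were seen. Differences within a set use log2(CPM + 0.5), which shrinks them for genes at low CPM and makes them unlike the edgeR fold changes. The GC correction subtracted, per library, the median deviation in 20 bins of GC content.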

Additional observations from a re-analysis of the deposited data

How the results depend on the processing

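No paired analysis was possible because no column name carries a replicate number of the labels. This holds for those numbers alone: set and experiment do link libraries across groups, and a block of 3 levels for them was added after the data were seen. All other alternatives were planned.

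Of 299 values of the 6 tested genes under alternatives, 284 kept their direction and their side of the threshold, 4 passed it and 11 changed sign. The values of Rsad2 and Ifit2 by the DESeq2 Wald test, which have no adjusted p, were counted as not past the threshold. The count of the 6 genes past the threshold in siLuc against untreated was 1 (Mavs) with the DESeq2 Wald test, 1 with only the 6 libraries compared and 1 with total count only. In siStag3 against untreated it was 0 to 1 when 1 library was left out (Rsad2). The sign changes of these and the other named genes follow. Bst2 in siStag3 against untreated was -0.0132 with total count only and -0.120 to 0.231 over all alternatives. Mavs there was -0.0439 with total count only, -0.0138 in Set 1 alone and -0.0379 to 0.0317 with 1 library left out. In siStag3 against siLuc, Eif2ak2 was 0.0552 in Set 1 alone and -0.112 to 0.0257 with 1 library left out. Ddx58 there was -0.000313 with a mean of at least 50 counts, -0.00174 with only the 6 libraries compared, -0.0210 in Set 1 alone and -0.0249 to 0.0418 with 1 library left out. Tarbp2 was -0.00962 in Set 1 alone, and with 1 library left out Sting1 ranged from -0.250 to 0.0338 and Ube2l6 from -0.00887 to 0.0600.

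Counts of pathway genes moved more. They cover all 82 tested genes of the lists, with the 6 tested genes above among them. The calls of Mavs and Rsad2 given above are therefore counted again here. None of the 6 passed in the main fit, so the counts of that fit are the same with or without them. In siLuc against untreated (5 as reported) there were 8 with the DESeq2 Wald test, 0 with no set covariate, 11 with only the 6 libraries compared, 8 with total count only and 1 to 3 with 1 library left out. In siStag3 against untreated (2) there were 4 with the GC correction, 0 with no set covariate and 0 to 5 with 1 library left out. Over all genes, siLuc against untreated gave 598 calls, 1337 with DESeq2, 991 with the GC correction, 1 with no set covariate, 1801 with only the 6 libraries compared, 298 in Set 1 alone, 317 with the set and experiment block and 111 to 387 with 1 library left out. siStag3 against untreated gave 361, then 962 with the GC correction, 2 with no set covariate, 949 in Set 1 alone and 78 to 1591 with 1 library left out. siStag3 against siLuc gave 4, then 22 with DESeq2, 60 with the GC correction, 0 with no set covariate (307 at an unadjusted p under 0.05), 1 with only the 6 libraries compared and 0 to 4 with 1 library left out. The cause of these changes was not tested. Depth limits Isg15, Irf7 and Ifih1, whose counts per library are 0 to 7.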

Other observations

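Some interferon-stimulated genes were abundant without any treatment (genes picked for their high values). The membrane proteins Ifitm1, Ifitm2 and Ifitm3, which restrict virus entry, were at 237, 249 and 196 CPM in untreated cells, at 237, 228 and 205 CPM in siLuc and at 239, 241 and 205 CPM in siStag3. The ubiquitin ligase Trim25, which acts on RIG-I, was at 224, 219 and 213 CPM in the same groups. None of these 4 genes passed the threshold in the 3 comparisons, where 4.2%, 2.53% and 0.0281% of all genes did. For Ifitm3 the interval of the edgeR fold change reached 1.14-fold in siLuc and 1.14-fold in siStag3 against untreated cells.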
